A study of Mus musculus with 22 samples.

Results

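A set of 1931 autosomal CpG positions was methylated in Müller glia of young adult mice and largely unmethylated in retinal progenitor cells (RPCs), out of 743808 autosomal positions listed in all 12 RRBS libraries. Reduced representation bisulfite sequencing (RRBS) reads methylation in CpG-rich fragments of the genome. The positions were chosen by their level, the percent of reads in which the cytosine was methylated: a mean of at least 60% over the 3 young Müller libraries and of at most 30% over the 3 RPC libraries. The strands of a CpG were listed apart, so the 1931 positions covered 1659 distinct CpGs. The opposite class, at 60% or more in RPCs and 30% or less in young cells, held 15175 positions, and 146071 positions were at 60% or more in both. All mice were C57BL/6 per the labels. Müller cells were collected by flow cytometry from Rlbp1-GFP reporter animals, in which the promoter of Rlbp1, a retinoid-binding protein of these glia, drives the marker. Each Müller group thus holds the cells that this reporter marks. The young group was 2 to 3 months old, the NMDA group was of the same age and had received NMDA in the vitreous 2 days before collection, and the aged group was 1.5 years old. RPCs came from embryos at embryonic day 12.5 and are not described as sorted. Each group had 3 RRBS libraries. The RNA libraries, 3 of NMDA cells, 3 of RPCs and 2 each of young and aged cells, are not tied to the RRBS libraries by the labels.

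Methylation of the cytosine in CpG is copied at cell division by Dnmt1, set on new sites by Dnmt3a and Dnmt3b, and removed through oxidation by Tet enzymes or by dilution. At promoters rich in CpG it usually accompanies a silent gene, whereas inside transcribed genes it is common and does not mark silence. Müller glia are among the last cells that RPCs produce, and they keep some progenitor genes active. NMDA over-activates glutamate receptors and kills inner retinal neurons, which provokes a reaction of the surrounding glia.

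Of the 1931 positions, 26 lay in a promoter window of the RefSeq table (250 bases before to 50 after a start, build GRCm38.p6), in the windows of 15 genes. Because the part before the start of 3 of these genes held a chosen position and overlapped no annotated gene, it is printed here to show the CpG setting in which such positions occur. Each run is 250 bases, 5′ to 3′ on the strand of the gene, from RefSeq, with the CpGs that were chosen in capitals.
Hpn, chr7:31115327-31115576, minus strand: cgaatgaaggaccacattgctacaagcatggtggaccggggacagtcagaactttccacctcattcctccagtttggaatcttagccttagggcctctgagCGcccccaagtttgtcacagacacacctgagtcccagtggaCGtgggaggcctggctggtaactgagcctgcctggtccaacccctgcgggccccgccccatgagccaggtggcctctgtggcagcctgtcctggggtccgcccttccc
Lactbl1, chr4:136622371-136622620, plus strand: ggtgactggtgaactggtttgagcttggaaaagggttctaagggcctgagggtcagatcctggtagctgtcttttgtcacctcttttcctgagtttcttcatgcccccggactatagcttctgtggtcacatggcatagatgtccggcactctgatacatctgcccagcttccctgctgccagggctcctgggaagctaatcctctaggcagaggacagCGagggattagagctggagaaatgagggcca
Gm31129, chr5:119133402-119133651, plus strand: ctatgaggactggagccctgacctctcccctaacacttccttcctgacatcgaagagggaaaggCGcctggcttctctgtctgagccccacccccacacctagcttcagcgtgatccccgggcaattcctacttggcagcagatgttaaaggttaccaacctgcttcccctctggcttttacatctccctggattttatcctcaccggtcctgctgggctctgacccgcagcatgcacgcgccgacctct
These stretches held few CpGs: 7 before Hpn, which encodes the membrane serine protease hepsin, 3 before Lactbl1 and 9 before Gm31129. They do not stand for all windows with chosen positions. Among stretches not printed because they overlapped annotated genes, that of 4933428G20Rik held 38 CpGs with 5 chosen positions. That of Gm13205 held 32 CpGs with 3 chosen positions. At Hpn the mean of the 2 chosen positions was 86.3, 69.5 and 68.9% in young cells, 63.4, 51.3 and 66.7% in NMDA cells, 70.9, 81.3 and 81.8% in aged cells, and RPCs had 13.7, 9.63 and 28.1%. At Lactbl1 the single position was at 70.4, 58.7 and 60.9% in young cells, 29.7, 32.3 and 32.1% in NMDA cells, 44.7, 46.4 and 58.4% in aged cells, and RPCs had 13.5, 3.03 and 9.39%. At Gm31129 the single position was at 80, 92.9 and 92.6% in young cells, 94.4, 82.05 and 83.3% in NMDA cells, 80.4, 96.8 and 86.3% in aged cells, and RPCs had 28.6, 30.6 and 29.8%. The NMDA libraries thus lay below all aged libraries at Hpn and Lactbl1 and overlapped them at Gm31129. At Hpn and Lactbl1 they were also below all young libraries, which chose the positions for being high there.

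Every listed position had at least 10 reads, and the median coverage at the chosen positions ran from 44 to 96 reads by library. Over all shared positions the median level was between 3.47 and 4.82% in young libraries, against 0 to 2.08% in the other 9. The part of this small excess in the results was not tested. In RNA, the 10 Müller markers summed to 47910 and 56900 counts scaled to the library total (CPM) in young, 15150 to 19050 in NMDA cells, 45900 and 46510 in aged and 2340 to 2371 in RPC libraries. Of the defining genes Fgf15 was at 533 to 631 CPM in RPCs and 0.331 CPM or less in Müller libraries, and Mki67, a proliferation marker, at 942 to 1049 CPM in RPCs and 28.6 CPM or less in Müller libraries. The 7 photoreceptor markers counted here summed to 1791 to 4715 CPM in the 7 Müller libraries and to 21.0 to 29.9 CPM in RPCs, and the 7 microglia and macrophage markers to 0 and 56.9 CPM in young, 257, 2948 and 585 CPM in NMDA cells and 60.6 and 66.0 CPM in aged libraries. The part of such other cells in the values below was not tested. In bulk samples, fewer cells of a type and less RNA per cell cannot be told apart, and neither can a changed level in all cells and a changed mixture.

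At the chosen positions the NMDA and aged Müller libraries stayed close to the young level and far from the RPC level. The median level was 76.9, 74.7 and 73.2% in the young libraries, 68.8, 65.5 and 65.2% in NMDA cells, 69.5, 70.4 and 69.2% in aged cells, and RPCs had 13.3, 13.0 and 12.5%. Young and RPC values selected the positions, so the gap between them is what the choice required and is given without a test. By group mean, 1238 of the 1931 positions (64.1%) were still at 60% or more in NMDA cells and 43 (2.23%) had a level of 30% or less. In aged cells 1380 (71.5%) were at 60% or more and 15 (0.777%) at 30% or less. The 43 positions that were low in NMDA cells had a median of 65.3% in young, 25.9% in NMDA cells, 41.5% in aged cells, and RPCs had 6.80%.

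**Figure D1:**
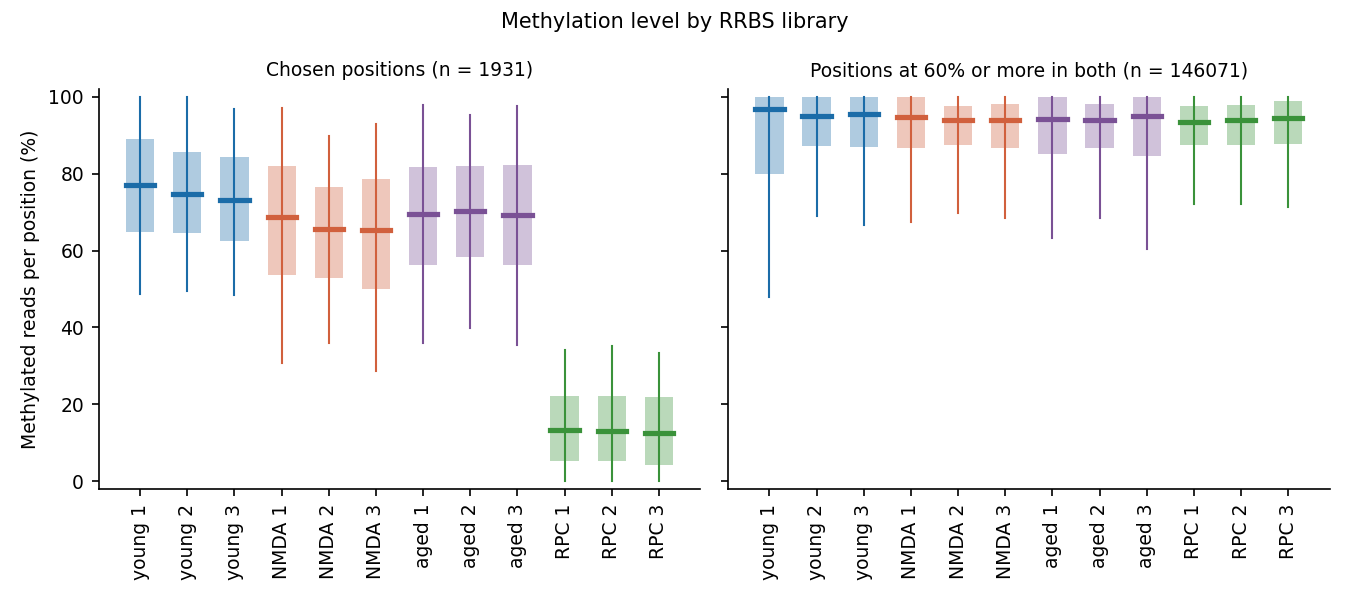
Methylation level (percent of reads methylated, linear axis) in each of the 12 RRBS libraries at the 1931 chosen positions (left) and at the 146071 positions at 60% or more in both young cells and RPCs (right). Lines run from the 5th to the 95th percentile of positions, boxes span the quartiles and thick bars are medians; at the chosen positions the NMDA and aged medians lie between 65.2 and 70.4%, and those of RPCs between 12.5 and 13.3%.

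Choosing positions on the young libraries favours values that were high there by sampling, so each young library was also read at positions chosen without it. Read in this way the medians were 71.0, 71.7 and 68.6% for the 3 young libraries, lower than the 73.2 to 76.9% above. At the same positions the median over positions of the NMDA mean minus the left-out young library was -5.91, -6.02 and -5.14 points, and that of the aged mean was -2.66, -3.02 and -1.98 points. At positions high in both young cells and RPCs, treated in the same way, the differences were -1.39, -0.987 and -1.25 points in NMDA cells and -1.32, -1.15 and -1.37 points in aged cells. These are descriptions: the 3 values of a row share 2 of their 3 choosing libraries and all of the NMDA or aged libraries. The RPC libraries, left out in turn, had medians of 14.3, 13.6 and 13.6%, with 82.0 to 83.4% of positions still at 30% or less. The other strand gives a second view, as its reads did not enter the choice of a position: it was measured for 867 chosen positions, was itself chosen at 544, and had a median of 70.8% in young cells, 66.3% in NMDA cells, 69.3% in aged cells, and RPCs had 14.2%.

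The thresholds cut through a continuous range. Just inside the young threshold, 437 positions at 60 to 65% had a median of 54.7% in NMDA cells and 57.2% in aged cells. Just outside it, 530 positions at 55 to 60% had 53.5% and 54.1%. Just inside the RPC threshold, 321 positions at 25 to 30% in RPCs had a median of 71.1% in NMDA cells and 69.9% in aged cells, and 397 positions just outside had 69.2% and 70.6%.

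NMDA against aged cells is the contrast of Müller groups that the choice left free. The NMDA level, from pooled reads, was below the aged level at 1186 of the 1931 positions (61.4%), with a median difference of -3.15 points. The same held for 46.7% of positions high in both young cells and RPCs (median 0.296 points) and for 25.9% of all positions tested (median 0). Every NMDA library was below every aged library at 268 positions (13.9%) and above at 89 (4.61%), against 1.74% and 7.45% of all shared positions. Over all shared positions the library medians were 0 to 1.37% in NMDA and aged cells, where there is little room to be lower. The shares of all positions in this paragraph are thus not matched for level to the chosen ones. In a quasi-binomial F test with Benjamini-Hochberg adjustment over 718061 positions (calls at an adjusted p under 0.05 with pooled levels 10 points or more apart), 13 chosen positions (0.673%) were lower in NMDA cells and 0 were higher. The percent called lower was 0.0164% of all positions tested and 0.0632% of those at 60% or more in young cells. Called higher were 0.712% and 0.0461%. At an unadjusted p under 0.05 in the same test there were 236 lower and 66 higher among the chosen positions. The share of all tested positions at this unadjusted level was not counted, so these counts have no background. The count of 13 depended on single libraries: it dropped to 0 without NMDA replicate 3 and to 2 without NMDA replicate 2, aged replicate 1 or aged replicate 3. It fell to 5 without RPC replicate 1, to 6 without young replicate 3 and to 7 without NMDA replicate 1, and no position passed with the replicate number as a block.

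The 5 called positions with the largest differences are described by their levels. The largest lay at base 85147863 of chromosome 1, in no annotated gene, with 0, 24.3 and 11.4% in NMDA cells, 91.4, 81.7 and 87.8% in aged cells and 84.5, 78.6 and 94.2% in young cells, so that the NMDA libraries were as low as the RPC libraries (5.71, 25 and 20.51%). The next, at base 85340070 of the same chromosome in the predicted genes Gm7592 and Gm7281, had 7.70% ± 7.38 in NMDA cells and 44.8% ± 7.94 in aged cells (SD, n = 3). The pooled differences were -72.1 and -36.1 points (quasi-binomial adjusted p = 0.0131 and 0.0292). Both positions lie within 200 kb of each other, and whether reads of near-identical copies mapped there was not tested. A position within 2000 bp of the start side of Fezf2, a zinc finger transcription factor of forebrain neurons, and outside its span was at 34.6% ± 3.34 in NMDA cells and 73.1% ± 14.1 in aged cells (-34.7 points, quasi-binomial adjusted p = 0.0486). A position in Kbtbd11, which encodes a protein with BTB and Kelch domains, was at 42.2% ± 1.55 and 72.1% ± 9.51 (-31.1 points, adjusted p = 0.0438 in the same test). One in Cyp46a1, the cholesterol 24-hydroxylase, was at 43.7% ± 13.8 and 78.9% ± 0.401 (-30.8 points, adjusted p = 0.0338 in the same test). With 1 of the NMDA or aged libraries left out, the first lost its call only without NMDA replicate 3 (quasi-binomial adjusted p = 0.0647). The second and that of Kbtbd11 kept theirs only without aged replicate 2 (0.0308 and 0.0359 in the same test). The Cyp46a1 position kept its call only without NMDA replicate 2 (0.0257), and the Fezf2 position lost it in every case (0.0629 to 0.16). No sign changed. The other 8 called positions lay in the spans of Speg, Nkx2-2, Wnt7b, Zfp316, Gm32186 and Cuedc1, outside but within 2000 bp of Tspo, and 1 in no gene, with differences of -29.3 to -16.1 points.

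Chosen positions clustered. Joined over gaps of at most 500 bp they formed 890 runs, of which 522 were single positions, 179 held 2, and 189 regions held at least 3; these 189 regions contained 1051 of the positions (54.4%). The regions were narrow, with a median width of 115 bp and a largest of 1236 bp, and 112 of them lay inside 1 protein-coding gene. Regional means in NMDA cells ran from 24.3 to 92.0% and in aged cells from 35.5 to 94.2%. The NMDA mean was below the aged mean in 127 of 189 regions. All NMDA libraries were below all aged libraries in 37 regions and above them in 7. Regions of other positions were not formed, so these region counts have no background. A mean under 50% was found in 20 regions in NMDA cells and in 6 in aged cells.

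**Figure D2:**
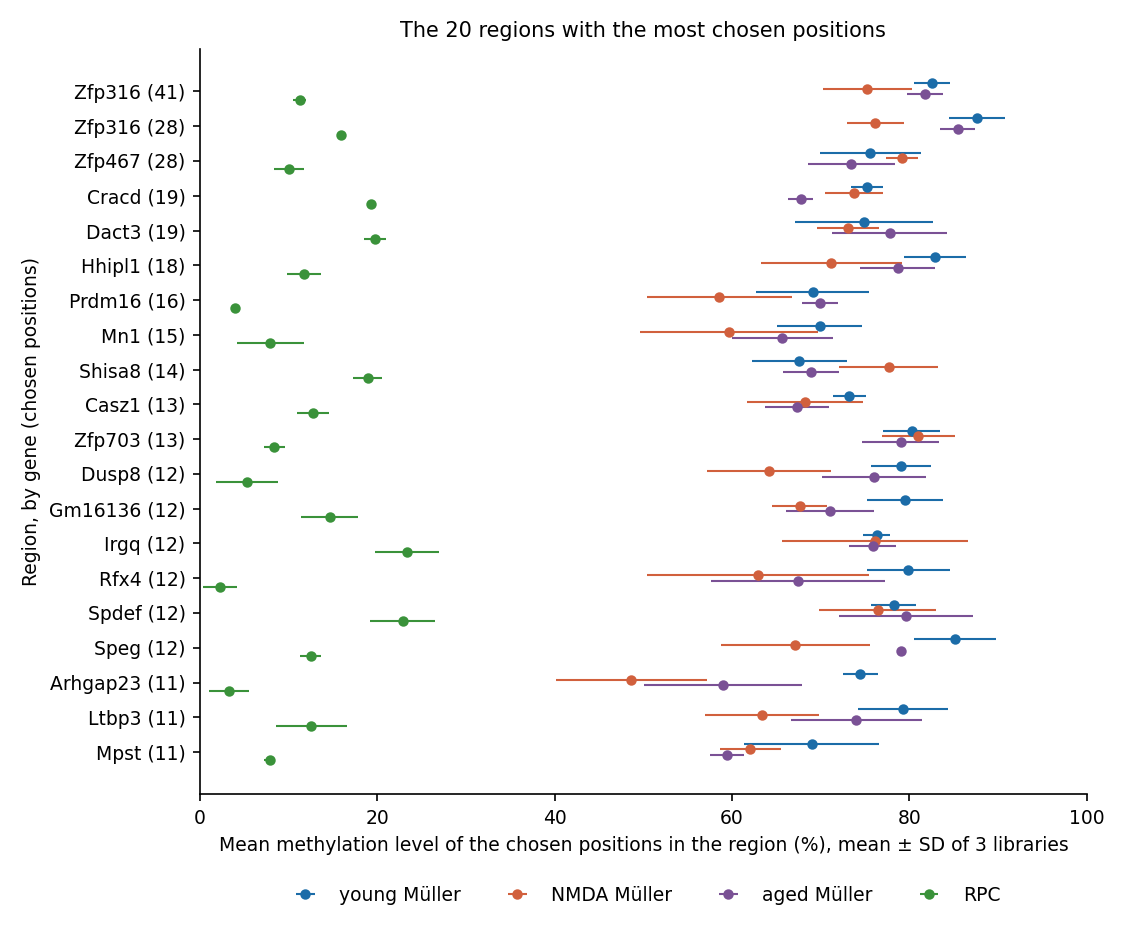
Mean methylation level of the chosen positions (percent, linear axis) in the 20 regions with the most of them, named by gene with the number of positions in brackets. Dots are means and bars SDs of 3 libraries per group; RPC means lie under 25% by the choice, and NMDA and aged means vary between regions, from an NMDA mean of 48.6% at Arhgap23 to one of 81.0% at Zfp703.

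The region with the most positions lay in Zfp316, a zinc finger gene (chr5:143254182-143255417), with 41 chosen among 64 measured positions in 1236 bp, about 75% of the way along the gene (74.9%). Its mean level was 84.6, 82.5 and 80.5% in young, 81.0, 72.5 and 72.3% in NMDA cells, 79.6, 83.7 and 81.9% in aged and 11.4, 10.5 and 11.8% in RPC libraries. A second Zfp316 region with 28 positions (chr5:143253003-143253236) was at 79.7, 73.3 and 75.6% in NMDA cells and 83.2, 86.7 and 86.5% in aged cells, so that the groups overlapped in the first region and not in the second. Together they gave Zfp316 69 chosen positions, the highest number of any gene.

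In Zfp467, another zinc finger gene (chr6:48438519-48439145, 28 positions), the order was the opposite: 79.97, 80.4 and 77.1% in NMDA cells and 76.4, 67.8 and 76.1% in aged cells. Shisa8, of a family of glutamate receptor auxiliary proteins (chr15:82207501-82207846, 14 positions), was at 71.6, 78.9 and 82.5% in NMDA cells and 72.3, 68.2 and 66.2% in aged cells. Cracd, a regulator of actin capping (chr5:76857714-76858046, 19 positions), had 73.7% ± 3.27 in NMDA cells and 67.7% ± 1.42 in aged cells, with no overlap. In these 3 genes the NMDA mean was therefore the higher one.

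The remaining regions of the 10 with the most positions had lower or similar means in NMDA cells. Dact3, an antagonist of Wnt signalling (chr7:16885673-16886217, 19 positions among 91 measured), was at 73.1% ± 3.50 in NMDA cells and 77.8% ± 6.51 in aged cells. Hhipl1, related to the hedgehog-interacting protein (chr12:108318560-108318790, 18 positions), had 71.2% ± 7.92 and 78.7% ± 4.24. Prdm16, a chromatin regulator of neural stem cells (chr4:154634821-154635026, 16 positions), had 58.6% ± 8.19 and 69.9% ± 2.01, against 3.96% ± 0.376 in RPCs. Mn1, a transcriptional co-regulator (chr5:111419221-111420067, 15 positions), had 59.7% ± 10.04 and 65.7% ± 5.66, and Casz1, a zinc finger factor of retinal progenitor timing (chr4:148952499-148952833, 13 positions), 68.3% ± 6.54 and 67.3% ± 3.65. In all 5 of these regions the NMDA and aged libraries overlapped.

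Measured positions inside the regions that were not chosen were mostly higher in young cells than in RPCs as well, with a smaller gap. There were 1216 of them, and 1169 (96.1%) were higher in young cells than in RPCs, with a median gap of 30.6 points. They lie between chosen positions, and the same share over all shared positions was not counted, so this count has no background. Their mean was 47.0% in young cells, 48.5% in NMDA cells, 48.4% in aged cells, and RPCs had 17.4%. Outside the regions the Müller level declined with distance, to 38.7% in young cells at 1 to 100 bp, 19.3% at over 250 and up to 500 bp and 10.5% at over 500 and up to 1000 bp, while RPCs were at 15.4, 12.1 and 5.26%. Chosen positions were left out of these bands, and by the joining rule none can lie within 500 bp outside a region. Part of the step down from the chosen positions is thus set by the choice. Over 5000 and up to 10000 bp away, young cells had 14.9% and RPCs 12.6%. The flanking positions did not share the lower NMDA level of the chosen ones: at over 250 and up to 500 bp the means were 24.4, 22.3 and 23.0% in NMDA cells and 21.9, 21.0 and 19.0% in aged cells.

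**Figure D3:**
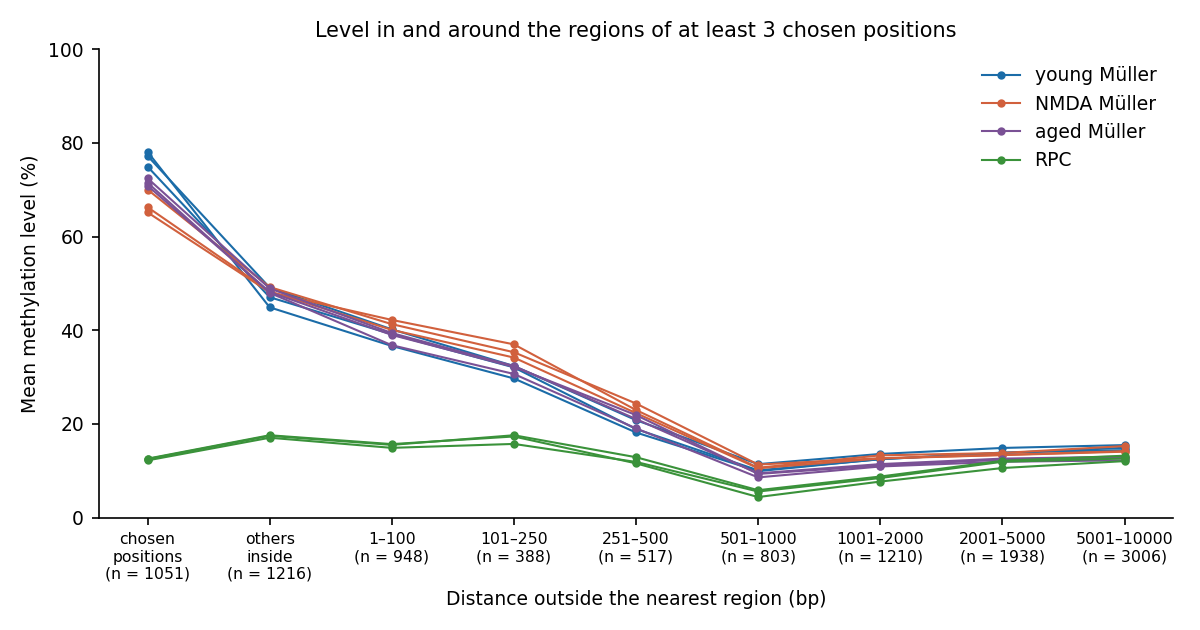
Mean methylation level (percent, linear axis) of each of the 12 RRBS libraries at the 1051 chosen positions inside regions, at the other measured positions inside the same regions and in bands of distance outside them (number of positions in brackets). The Müller libraries decline from 65.2 to 78.1% at the chosen positions to between 8.57 and 11.4% at over 500 and up to 1000 bp, and RPC libraries stay at or under 17.6% throughout. The bands leave out all chosen positions, so part of the step is set by the choice.

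Most chosen positions lay inside genes and away from starts. Of the 1891 positions outside chromosome 18, for which the table lists no starts, 26 (1.38%) were in a promoter window against 14.1% of all shared positions. Within 1000 bp of a listed start were 228 (12.1%, against 47.0%), from there to 5000 bp 381 (20.2%, against 10.98%) and farther away 1282 (67.8%, against 42.0%). The median distance was 11220 bp, compared with 1480 bp for all shared positions, 27510 bp for those high in both cell types and 19800 bp for the opposite class, so the median chosen position lay nearer to a start than those of the other methylated classes. A share of 72.8% lay in the span of a protein-coding gene, with 69.4% of all shared positions, 61.9% of the opposite class and 47.1% of those high in both. Within such genes 30.9% of position and gene pairs fell in the last 20% of the span and 20.6% in the first 20%, whereas 65.02% of all measured pairs fell in the first and 9.46% in the last. The median number of measured positions within 250 bp, the position itself included, was 11 for the chosen ones, 8 for those high in both and 23 for all. By chromosome the share of measured positions that were chosen ran from 0.138% on chromosome 3 to 0.409% on chromosome 5, which carries Zfp316. Exons and introns could not be told apart, as the annotation used here gives whole spans, and the starts are 1 per listed gene.

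**Figure D4:**
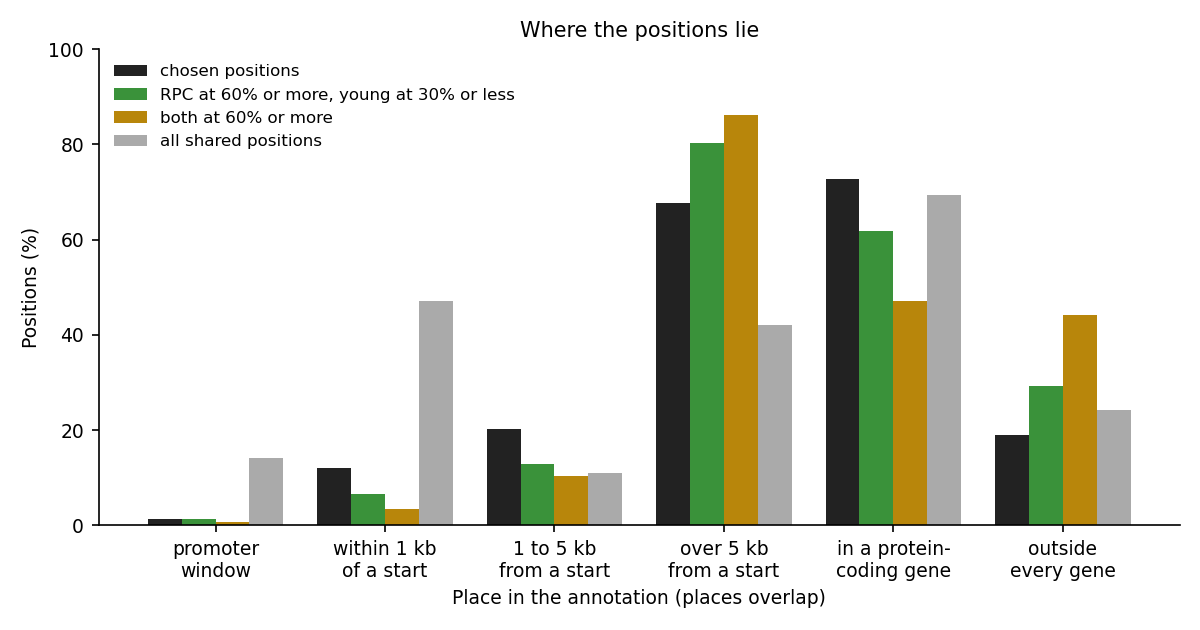
Percent of positions in each place of the annotation for the 1891 chosen positions outside chromosome 18, the opposite class (RPC at 60% or more, young at 30% or less), positions at 60% or more in both, and all shared positions. Bars start at 0 and the places overlap; 12.1% of chosen positions lie within 1 kb of a start, more than in the opposite class (6.65%) and in positions high in both (3.35%) and fewer than among all shared positions (47.0%).

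A gene was linked to the chosen positions if at least 3 lay in its RefSeq span or within 2000 bp of it. There were 231 such genes, 187 of them protein coding, and 177 passed the expression filter of the RNA test. In edgeR's quasi-likelihood test with Benjamini-Hochberg adjustment over 18931 genes, 54 of the 177 (30.5%) were higher and 81 (45.8%) lower in RPCs than in young Müller cells, with a median log2 difference of -0.57. Of all genes tested 35.9% were higher and 24.9% lower (median 0.30), and of the 13178 with at least 3 measured RRBS positions 36.0% were higher and 27.3% lower (median 0.24). The percent of linked genes higher in RPCs was thus near the background and the percent lower was above it. Many of these genes share loci: 22 of those tested were protocadherin gamma genes, adhesion molecules whose isoforms share last exons and here the same chosen positions. Of these 21 were lower in RPCs, and how the authors' counting split reads between them is uncertain. Without them 54 of 155 (34.8%) were higher and 60 (38.7%) lower, with a median of -0.04.

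The young RNA libraries detected fewer genes than the others, 13913 and 14919 with at least 1 count against 20920 to 23618, and 43 linked genes were at 0 counts in both of them. Against the NMDA libraries 41 of the 177 linked genes (23.2%) were higher in RPCs and 92 (52.0%) lower, with 25.8% and 31.9% of all genes. Against the aged libraries 37 (20.9%) were higher and 94 (53.1%) lower, with 26.3% and 29.0% of all genes. The 3 comparisons share the RPC libraries. Genes linked in the same way to the opposite class, methylated in RPCs and not in young cells, had 25.3% higher and 44.6% lower in RPCs among 1074 tested, so that a larger percent lower than among all genes was seen for both classes. Of the 177 genes 40 were linked to both, and the other 137 had 27.7% higher and 47.4% lower.

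**Figure D5:**
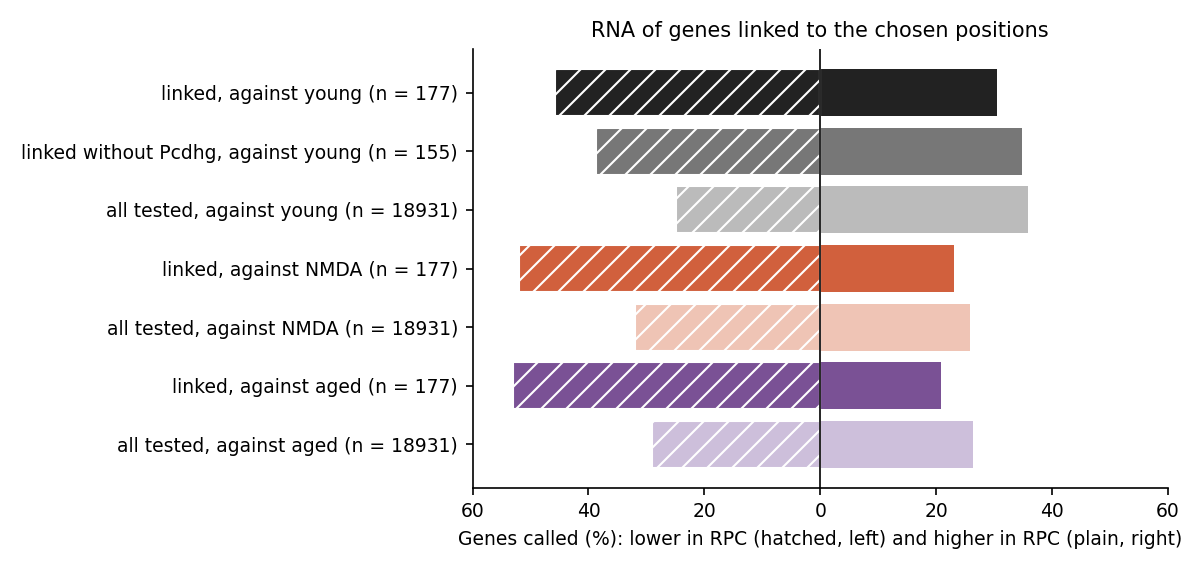
Percent of genes called lower (hatched, left) and higher (plain, right) in RPC RNA for genes linked to the chosen positions and for all genes tested, against young, NMDA and aged Müller libraries. Linked genes are called lower in 45.8, 52.0 and 53.1% of cases, against 24.9, 31.9 and 29.0% of all genes, and in 38.7% against young cells when the protocadherin gamma genes are left out.

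Among lists of retinal genes few members were linked, but in 2 lists the percent was well above that of all genes. Counting genes with at least 3 measured positions, the linked ones were 1 of 31 retinal progenitor genes (Meis2) and 1 of 24 Müller genes (Nfix). They were 5 of 39 neurogenic genes (Ebf1, Ebf3, Tfap2a, Lhx9 and Irx6) and 6 of 51 Sox, Pax and homeobox regulators (Zfhx3, Meis2, Foxc1, Lhx9, Nkx2-2 and Tbx1). They were 1 of 43 axon guidance genes (Sema5b) and 1 of 55 genes of Wnt, BMP, FGF and Hedgehog signalling (Wnt7b). Of all genes, 231 of 20960 (1.10%) were linked, against 12.8% of the neurogenic list and 11.8% of the Sox, Pax and homeobox list. A gene with more measured positions can more easily hold 3 chosen ones, and the lists were not matched to all genes for this. None of 15 photoreceptor, 24 Notch, 24 proliferation or 23 DNA methylation genes was, and none of the markers of microglia, vascular cells, or lens and pigment cells. The homeobox list shares Meis2 and Lhx9 with the others.

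Nfix, a nuclear factor I transcription factor of late progenitors and glia, was methylated in its last part in the cells that express it. Of its 6 chosen positions 5 formed a region at 96.8% of the gene's length (chr8:84707729-84707967), at 87.7, 79.1 and 68.3% in young, 33.4, 47.9 and 53.1% in NMDA cells, 60.2, 59.0 and 46.3% in aged and 1.12, 0.732 and 3.79% in RPC libraries. All NMDA and aged libraries were below all young ones, which chose the positions, and the NMDA and aged libraries overlapped. Its RNA was at 509 and 459 CPM in young, 584, 397 and 615 CPM in NMDA cells, 716 and 699 CPM in aged and 2.89, 1.72 and 1.75 CPM in RPC libraries. The log2 difference of RPCs from young cells was -7.93 ± 0.29 (SE, edgeR adjusted p = 1.9e-07).

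The other 4 genes with the lowest log2 differences in RPCs among linked genes were also expressed where the positions were methylated. Ppp1r1b, the phosphatase regulator DARPP-32 (4 positions), was at 104 and 53.2 CPM in young, 9.52, 5.95 and 8.29 CPM in NMDA cells, 38.9 and 30.9 CPM in aged and 0.207, 0.0904 and 0.175 CPM in RPC libraries. Its positions had 77.3% ± 3.02 in young, 51.3% ± 13.9 in NMDA cells, 62.9% ± 7.68 in aged cells, and RPCs had 17.2% ± 2.61. Adgra2, an adhesion receptor that acts with Wnt7 ligands at brain vessels and is listed in the RNA table as Gpr124, had 788 and 1042 CPM in young and 5.10 to 7.77 CPM in RPC libraries, with levels of 74.9% ± 3.35 and 25.8% ± 7.68 at 4 positions. Vascular markers also differed between these libraries, at 366 and 469 CPM summed in young and 11.2 to 21.9 CPM in RPC libraries, and their part in the Adgra2 value was not tested. Lrtm1, a leucine-rich repeat membrane protein (3 positions, also in the span of Cacna2d3), and Tafa4, a secreted peptide listed as Fam19a4 (4 positions), had log2 differences of -7.69 ± 1.01 and -6.10 ± 0.30 (edgeR adjusted p = 0.00022 and 6.6e-07). The Tafa4 positions were at 42.3, 38.2 and 28.6% in NMDA cells and 64.1, 54.0 and 61.6% in aged cells, without overlap. Its RNA had 37.3 to 42.4 CPM in NMDA cells and 36.3 and 38.9 CPM in aged libraries.

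The 5 linked genes with the highest log2 differences were at 0 counts in both young libraries, so their folds are lower bounds set by 3 counts over the pooled young libraries (0.118 CPM). Ebf3, an early B-cell factor of neuronal differentiation, was at 83.8, 45.7 and 68.6 CPM in RPCs, at least 572-fold higher than in young cells, and at 1.29 to 4.73 CPM in NMDA and aged libraries. The 6 early neuron markers summed to 1323, 717 and 1115 CPM in the same RPC libraries and to 5.54 to 68.9 CPM in Müller libraries, and their part in the values of Ebf3 and Ebf1 was not tested. The 5 Ebf3 positions, 11.9% along the gene, had 73.6% ± 6.05 in young, 75.2% ± 2.62 in NMDA cells, 73.4% ± 9.85 in aged cells, and RPCs had 22.4% ± 11.7. Ebf1, of the same family, was at 18.3, 11.02 and 19.8 CPM in RPCs (at least 140-fold higher), with 9 positions at 77.4% ± 3.15 in young, 71.7, 63.6 and 61.2% in NMDA cells, 75.6, 77.7 and 75.3% in aged cells, and RPCs had 17.3% ± 4.26. The NMDA libraries of Ebf1 lay below all aged ones, and those of Ebf3 overlapped them. Tnfrsf19, a receptor of the tumour necrosis factor family, and Troap, a spindle protein of dividing cells, were at least 119-fold and 110-fold higher in RPCs (14.1 and 13.0 CPM pooled). The Troap positions lay beyond the end of its span and inside the neighbouring C1ql4. The positions linked to Tnfrsf19 and Troap were at 54.5% ± 4.50 and 64.4% ± 3.14 in NMDA cells and 63.3% ± 2.93 and 69.1% ± 5.72 in aged cells. For these 4 genes edgeR's quasi-likelihood test gave adjusted p = 4.9e-06 for Ebf3, 0.00083 for Ebf1, 0.00023 for Tnfrsf19 and 0.00089 for Troap.

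Wnt7b, a secreted Wnt ligand, was the last of these. Its 6 positions in 71 bp (chr15:85579889-85579959) were at 72.8, 85.8 and 80.1% in young, 57.7, 57.3 and 54.6% in NMDA cells, 72.5, 80.9 and 74.8% in aged and 3.10, 4.12 and 3.73% in RPC libraries, with NMDA below all aged libraries and below all young ones, which chose the positions. Its RNA was at 0 CPM in both young libraries, 4.22, 40.3 and 10.8 CPM in NMDA cells, 4.50 and 0 CPM in aged and 5.92, 10.9 and 7.34 CPM in RPC libraries, at least 66.4-fold higher in RPCs than in young cells (edgeR adjusted p = 0.029). NMDA replicate 2, with the highest Wnt7b value, also had the highest sums of microglia markers (2948 CPM) and lens markers (754 CPM, against 0 to 49.4 CPM in the other libraries), and their part in it was not tested. The Wnt7b call was lost without RPC replicate 2 (adjusted p = 0.0562) or 3 (0.0505) and without young replicate 1 (0.0877) or 2 (0.0657) in the same edgeR test, and with the replicate block (0.0718).

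Of the transcription factors named by the lists, Meis2, a homeobox factor of retinal progenitors, had 6 positions about 3% along the gene (2.91 to 3.26%). They were at 83.8, 84.8 and 88.2% in young, 77.8, 64.4 and 62.8% in NMDA cells, 86.5, 82.0 and 90.7% in aged and 4.64, 5.53 and 6.52% in RPC libraries, again with NMDA below all aged libraries and below all young ones, which chose the positions. Its RNA was at 35.7 and 2.37 CPM in young libraries and 53.4, 67.5 and 56.4 CPM in RPCs, a log2 difference of 1.47 ± 0.80 that did not pass (edgeR adjusted p = 0.14). The young libraries differed widely: without young replicate 1 the difference was 4.53 (edgeR adjusted p = 5.21e-06) and without young replicate 2 it was 0.58 (0.0568), the lone young library being assumed to vary like the other groups. Zfhx3, a zinc finger homeobox factor with 10 positions at 83.9% ± 3.45 in young and 3.65% ± 1.14 in RPCs, was higher in RPC RNA (64.5, 82.0 and 72.8 CPM against 0 and 7.09 CPM, log2 4.31 ± 1.21, edgeR adjusted p = 0.013). With young and RPC libraries alone its adjusted p was 0.063. The size of the Zfhx3 difference rested on the young libraries, at 3.25 without young replicate 1 (edgeR adjusted p = 0.00165) and at a fitted 13.25 without young replicate 2 (5.47e-05), where the remaining young library had 0 counts.

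Lhx9, a LIM homeobox factor, went the other way in RNA, at 3.49 and 8.18 CPM in young, 24.3 and 24.3 CPM in aged and 0.138, 0 and 0.262 CPM in RPC libraries (log2 -5.47 ± 0.78, edgeR adjusted p = 0.00036), with 4 positions at 67.2% ± 7.498 in young and 2.25% ± 1.57 in RPCs. Tfap2a, an AP-2 factor of amacrine cells and surface ectoderm, was at 0 CPM in young, 3.72, 9.71 and 3.28 CPM in NMDA cells, 2.69 and 1.81 CPM in aged and 2.07, 4.16 and 2.80 CPM in RPC libraries, at least 24.6-fold higher in RPCs than in young cells (edgeR adjusted p = 0.00068). Its 6 positions, 9.57% along the gene, were at 86.0% ± 6.32 in young, 66.2% ± 6.12 in NMDA cells, 73.9% ± 10.4 in aged cells, and RPCs had 0.587% ± 0.513. Irx6, an Iroquois factor of retinal neurons, had 3 positions and RNA at 2.83 and 6.90 CPM in young and 1.36 to 3.38 CPM in RPC libraries (log2 -0.98 ± 0.77, edgeR adjusted p = 0.30), with overlap.

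Foxc1, a forkhead factor of the anterior eye, was at 0 CPM in young and 2.27, 4.34 and 3.76 CPM in RPC libraries, at least 28.3-fold higher (edgeR adjusted p = 0.0093). Its 5 positions lay beyond the gene's end and were the most methylated of the named genes in young cells, at 97.7, 97.7 and 97.4%, with 92.1, 94.2 and 89.9% in NMDA cells, 93.1, 93.6 and 74.5% in aged cells, and RPCs had 6.50, 9.64 and 5.95%. Nkx2-2, a homeobox factor of the ventral neural tube, had 4 positions at 67.5% ± 2.32 in young, 49.1% ± 2.48 in NMDA cells, 54.7% ± 6.00 in aged cells, and RPCs had 5.05% ± 2.75. Its RNA was at most 0.181 CPM in any library. Tbx1, a T-box factor of the pharyngeal arches, had 4 positions at 88.0% ± 8.71 in young and 2.13% ± 1.19 in RPCs and at most 0.617 CPM in any library. Sema5b, a guidance molecule that keeps retinal neurites in their layers, had 6 positions in its last part at 83.0% ± 1.92 in young, 71.9% ± 5.30 in NMDA cells, 82.5% ± 3.25 in aged cells, and RPCs had 13.4% ± 6.56. Its RNA was at 14.1 and 12.9 CPM in young, 79.7, 55.9 and 75.6 CPM in NMDA cells, 119 and 110 CPM in aged and 1.38, 1.18 and 1.05 CPM in RPC libraries (log2 -3.61 ± 0.21, edgeR adjusted p = 1.5e-06). Across the genes named by the lists, methylated positions in young cells stood beside RNA higher than in RPCs (Nfix, Lhx9, Sema5b) or lower (Ebf1, Ebf3, Zfhx3, Foxc1, Tfap2a, Wnt7b). Nkx2-2 and Tbx1 had hardly any RNA in either cell type, and the differences of Meis2 and Irx6 did not pass. The genes with lower RNA, apart from Zfhx3, were at 0 counts in both young libraries, which detected fewer genes than the others.

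Kbtbd11, Arhgap23 and Ece1, looked up after their values were seen, show both kinds of readout for regions with low NMDA or aged means. The 8 positions of Kbtbd11 in 138 bp (chr8:15028615-15028752) were at 72.8, 82.1 and 60.96% in young, 40.2, 40.2 and 31.7% in NMDA cells, 63.5, 53.4 and 50.6% in aged and 6.88, 8.79 and 10.02% in RPC libraries. Its RNA was at 218 and 215 CPM in young, 48.8, 22.8 and 42.1 CPM in NMDA cells, 277 and 302 CPM in aged and 14.3 to 18.04 CPM in RPC libraries, so that the NMDA libraries lay between the other Müller groups and RPCs in both readouts. Arhgap23 (11 positions, chr11:97500155-97500869), was at 48.6% ± 8.52 in NMDA cells and 59.0% ± 8.91 in aged cells, with RNA of 68.4 to 88.8 CPM in NMDA cells and 139 and 141 CPM in aged libraries. The same region was linked to 4933428G20Rik, whose promoter window it includes with 6 chosen positions, and lay 172 bp from the nearest listed start. Ece1, the endothelin-converting enzyme, had 5 positions in 19 bp (chr4:137899039-137899057) at 61.6, 32.8 and 31.0% in NMDA cells and 62.1, 61.4 and 65.8% in aged cells, and RNA of 9.74 and 10.1 CPM in young, 93.0 to 113 CPM in NMDA cells, 151 and 177 CPM in aged and 1.03 to 1.45 CPM in RPC libraries. A second Ece1 region of 7 positions (chr4:137920764-137920947) lay 62 bp from a listed start, with 3 positions in the promoter window of Ece1. It was at 76.8% ± 8.02 in young, 81.9% ± 6.13 in NMDA cells and 90.6% ± 3.71 in aged cells. The NMDA mean was thus the lowest of the Müller groups in the first region, with 81.8% ± 3.47 in young cells, and not in the second. In this comparison and that of Kbtbd11 the young and RPC libraries had chosen the positions.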

How the data were processed

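Per the file headers, the deposited RRBS tables give the coverage and the percent of reads with a methylated (and an unmethylated) cytosine at each CpG base and strand, listed from 10 reads up. For RNA the authors deposited counts of reads for 44792 gene symbols. Their counting tool and strand setting are not given in the sources used here, nor is the sex of the mice. The submitters' processing notes name methylKit 1.4.0, Bismark 0.16.3, Trim Galore 0.4.3 and HISAT2 2.0.4 and the builds mm10 and GRCm38, without a stated role.

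The positions, gene lists and naming rule were chosen with earlier results of these data known. Levels per library were averaged by group. NMDA and aged levels were compared by a quasi-binomial model of methylated and unmethylated reads over all 12 libraries (8 residual degrees of freedom, overdispersion moderated across positions, pandas 2.3.3, scipy 1.17.1 and numpy 2.4.6 in Python 3.11.15). Methylated reads were recovered as coverage times percent, rounded. RNA was fitted in R 4.3.3 with edgeR 4.0.16 (TMM scaling, filterByExpr, quasi-likelihood, 10 libraries of 10149390 to 36486072 counts), with DESeq2 1.42.0 as an alternative. The quasi-binomial and edgeR tests were checked on simulated data, DESeq2 was not. The quasi-binomial test recovered 40 of 100 positions changed by 30 points and 98 of 100 changed by 60 points, with 0 false calls. Of unchanged positions 6.29% had an unadjusted p under 0.05 in it. The edgeR test recovered 2 of 100 genes changed 2-fold and 95 of 100 changed 8-fold, with 3 false calls. Positions or genes without a call may therefore still differ. Per the labels the RRBS libraries were biological replicates, whereas for RNA of NMDA cells and RPCs nothing says so, and p-values there may measure technical spread only. RefSeq spans and starts were of GRCm38.p6. All 118351 pairs of a measured position and a promoter window had the expected base. The text names the 10 regions with the most positions, up to 5 called positions per direction, the 5 linked genes with the highest and the lowest RNA differences (called, averaging 1 CPM or more, libraries not overlapping), and up to 3 linked genes per list (all of them for progenitor, Müller and neurogenic lists). Replicate numbers did not pair libraries (correlations of deviations from -0.0315 to 0.0324 in RRBS). Alternatives covered coverage, thresholds, strands, model, scaling, filters, distances and each library left out. Of the photoreceptor markers 1 is not reported here.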

Additional observations from a re-analysis of the deposited data

How the results depend on the processing

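The number of chosen positions was 1931 and moved to 1075 with at least 20 reads in every library, 781 at thresholds of 70 and 20%, and 4535 at 50 and 40%; leaving out a choosing library gave 1945 to 2105. The NMDA median of 66.2% became 69.8% at 70 and 20% and 60.5% at 50 and 40% (64.3 to 66.9% without 1 library), and the aged median of 68.9% became 75.6%, 61.1% and, with strands summed, 69.6% (67.0 to 69.4% without 1 library). Positions called lower in NMDA than in aged cells, 13 above, numbered 7 at 70 and 20%, 423 in a plain logistic model without overdispersion, 0 at 25 points and an adjusted p under 0.01, and 28 with NMDA and aged groups alone, and 0 to 13 without 1 library. Positions called higher numbered 8 at 50 and 40%, 2 with strands summed, 146 in the plain logistic model and 0 to 1 without 1 library. Regions numbered 74 when 5 positions were required. Linked genes higher in RPCs numbered 35 at a mean of 5 CPM, 188 with at least 1 and 26 with at least 5 positions per gene (48 to 65 without 1 library), and linked genes lower 221 with at least 1 position (76 to 89 without 1 library). No result tried changed sign, and the cause of each shift was not tested. Leaving out the protocadherin gamma genes was chosen after seeing the data.

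With the replicate number as a block, 0 chosen positions were called lower or higher in NMDA than in aged cells, and 47 linked genes were higher and 78 lower in RPCs. Same-numbered libraries did not deviate together (correlations of -0.0571 to 0.0775 in RNA), and 7 of 36 combinations of an RRBS library and another group matched best by number, so the block is no pairing by design.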
